A study of Rattus norvegicus with 24 samples.

Results

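The genes described here run the traffic of membrane vesicles between the endoplasmic reticulum, the Golgi, the endosomes and the cell surface, and they were measured in rat brain endothelial cells exposed to silver nanoparticles. Membership was set by name. A probe was taken by the start of its gene symbol in the platform annotation. The symbols were those of the Rab, Arf or Arf GAP, Vps, sorting nexin (Snx), syntaxin (Stx) and Vamp genes. Those of the COPI coat (Cop), Sec, adaptor (Ap1 to Ap4), Trappc, Golph3, cornichon (Cnih) and Tbc1d genes were taken too. In all, 216 of the 22523 probes on the array were taken, for 207 of the 13337 named genes. A probe was tested when it was detected (detection p under 0.01) on at least 4 of the 24 arrays, which 72 of the 216 probes, for 71 genes, and 2774 of all probes were. The name pattern also took Sec61a1 and Sec11a, which serve the import of new proteins into the endoplasmic reticulum and not vesicle transport.

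RBEC4 is a line of rat brain endothelial cells, which the labels call cells of the blood-brain barrier. At 95% confluence the cells spent 18 h with silver particles at 1 ppm. The 10 nm particles coated with polyvinylpyrrolidone (PVP10), the 75 nm particles with that coating (PVP75), the 10 nm particles coated with citrate (citrate10) and the 75 nm particles with citrate (citrate75) had 5 arrays each, and cells exposed to no particle (control) had 4. RNA was hybridised to 2 Illumina BeadChips, over which the groups were spread unevenly. PVP75 had 4 arrays on chip 1 and 1 on chip 2, whereas the control had 1 and 3. All groups share this 1 cell line, which has no genetic change named in the labels. Nothing in the labels says that the arrays of a group come from separate cultures, and the spread that a p-value rests on may thus be technical.

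Vesicles bud from one membrane under a coat of proteins and fuse with another. Small GTPases of the Rab and Arf families switch the steps on and are switched off by GTPase-activating proteins (GAPs). Coats (COPI, COPII and the adaptors AP-1 to AP-4) gather cargo, and tethers such as the HOPS and TRAPP complexes catch the vesicle. SNAREs, the syntaxins and VAMPs among them, drive fusion. Sorting nexins and the retromer return cargo from endosomes, and the ESCRT machinery sends it to lysosomes. In brain endothelium these routes carry receptors and solutes between the blood side and the brain side of the cell.

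Between 2128 and 2576 probes were detected per array, and arrays of the same group correlated at 0.981 or above over the kept probes. A level here is a normalized log2 intensity and is compared only within a probe. A gene is written as called, or as having risen or fallen, when limma's adjusted p (Benjamini-Hochberg over the 2774 kept probes) was under 0.05. Of 15 endothelial marker genes on the array, those for VE-cadherin, claudin-5 and von Willebrand factor among them, only Tie1 passed the detection filter, and it was not called in PVP10 (log2 fold change 0.08, adjusted p = 0.588). Of the markers of other cells, 0 of 5 astrocyte, 0 of 8 pericyte and fibroblast and 0 of 4 microglia genes passed, against 3 of 9 neuronal genes. Of those 3, Gad2 fell (-0.39) and Nefm rose (0.25) in PVP10, and Rbfox3 was not called (-0.06). The mean level of the 3 joins a fall and a rise. It ran between 4.81 and 5.13 on PVP10 arrays and between 4.93 and 5.14 on control arrays. Such levels, and that of Tie1 (4.61 to 4.99 on control arrays), lie near the detection limit, close to Vps37c, which was detected on 4 arrays. The part of these markers in the results below was not tested. In such bulk samples fewer cells of a type and less RNA per cell cannot be told apart.

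Of the 216 trafficking probes, 132 were detected on 0 arrays and 12 on 1 to 3 arrays. Among the 72 kept, 55 were detected on every array and 17 on 4 to 23. Just inside the threshold were Ap1b1, Vamp2 and Vps37c, each detected on 4 arrays, and just outside were Snx33 and Vps26a, on 3. In 7 kept probes (those of Ap1b1, Ap3m2, Ap4m1, Snx5, Vamp2 and Vps37c and the dimmer one of Copb1) at least 1 group had no array with detection. Copb1 was the only gene with a pair of kept probes, and neither was called in PVP10. The brighter measured -0.09, and the dimmer was detected on 2 PVP10 and 0 control arrays, so no fold is given for it.

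The promoters of a few members are shown first because their genes moved together or carry the letters searched below. A promoter window covers 250 bases before and 50 after the transcription start in RefSeq (GRCr8), and 66 of the 71 kept genes had one. The windows are written 5′ to 3′ on the gene's own strand. Capitals mark CACGTG (the E-box core), TGACNNNGC (the core of the antioxidant response element, with N any base) or TGACGTG (an unfolded protein response core), each searched on both strands. The windows are those of Rab10 (chr6:32039505-32039804, minus strand), Rab5a (chr9:6720877-6721176, plus strand), Stx12 (chr5:150376297-150376596, minus strand), Vps18 (chr3:126733026-126733325, plus strand) and Rab1a (chr14:98623427-98623726, plus strand), all of which rose in PVP10, and of Arf5 (chr4:58003721-58004020, plus strand), which fell.
Rab10: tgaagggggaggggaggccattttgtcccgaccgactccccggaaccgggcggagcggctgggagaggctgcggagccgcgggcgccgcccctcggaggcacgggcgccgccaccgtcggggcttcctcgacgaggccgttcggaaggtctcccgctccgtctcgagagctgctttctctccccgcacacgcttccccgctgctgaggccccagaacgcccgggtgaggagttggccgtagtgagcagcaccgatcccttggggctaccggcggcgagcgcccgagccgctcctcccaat
Rab5a: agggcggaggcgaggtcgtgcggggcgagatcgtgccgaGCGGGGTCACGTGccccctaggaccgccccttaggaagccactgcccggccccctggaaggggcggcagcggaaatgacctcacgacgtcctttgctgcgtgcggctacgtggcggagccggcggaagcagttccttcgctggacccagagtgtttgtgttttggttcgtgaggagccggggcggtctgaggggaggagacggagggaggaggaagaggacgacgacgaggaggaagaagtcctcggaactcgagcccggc
Stx12: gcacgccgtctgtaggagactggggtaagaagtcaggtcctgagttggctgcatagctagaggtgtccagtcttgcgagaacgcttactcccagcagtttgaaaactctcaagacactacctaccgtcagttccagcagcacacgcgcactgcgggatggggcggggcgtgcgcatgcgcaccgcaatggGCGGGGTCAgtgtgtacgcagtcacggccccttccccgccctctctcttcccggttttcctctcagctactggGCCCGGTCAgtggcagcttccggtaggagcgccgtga
Vps18: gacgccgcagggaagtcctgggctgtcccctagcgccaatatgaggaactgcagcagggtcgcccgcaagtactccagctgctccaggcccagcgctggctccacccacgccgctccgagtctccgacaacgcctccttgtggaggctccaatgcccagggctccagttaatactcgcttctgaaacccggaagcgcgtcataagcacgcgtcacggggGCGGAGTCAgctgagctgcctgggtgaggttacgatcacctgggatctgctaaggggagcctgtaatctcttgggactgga
Rab1a: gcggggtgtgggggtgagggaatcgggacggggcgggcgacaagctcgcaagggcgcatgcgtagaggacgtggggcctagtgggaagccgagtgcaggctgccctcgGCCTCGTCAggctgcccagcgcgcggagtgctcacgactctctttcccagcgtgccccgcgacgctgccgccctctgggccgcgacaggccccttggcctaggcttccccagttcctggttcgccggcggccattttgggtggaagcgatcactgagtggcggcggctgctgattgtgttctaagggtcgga
Arf5: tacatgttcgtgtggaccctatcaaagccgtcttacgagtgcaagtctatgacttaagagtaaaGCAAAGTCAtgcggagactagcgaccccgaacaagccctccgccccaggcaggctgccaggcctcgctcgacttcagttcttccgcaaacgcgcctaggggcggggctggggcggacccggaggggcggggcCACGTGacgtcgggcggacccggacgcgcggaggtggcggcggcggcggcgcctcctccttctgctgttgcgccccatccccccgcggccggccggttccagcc
Rab10, the member that rose most, held none of the 3 motifs in its window. In Rab5a an E-box core starting at -204 overlapped a reverse-strand antioxidant core starting at -211, where the first base of the transcript is 1. Stx12 held the antioxidant core at -60 and again at 14, Vps18 at -31 and Rab1a at -142, all on the reverse strand. Arf5, which fell, held an E-box core at -54 and an antioxidant core at -186, so these letters stood in genes of either direction. Over the 66 windows CACGTG was present in 9 (13.6%), against 6.42% of the 33469 windows in the table. TGACNNNGC was in 14 (21.2%), against 12.1%, and TGACGTG, which can overlap both others, was in 4 (6.06%), against 1.81%. The 33469 windows are not limited to genes that passed the detection filter, for which the shares were not measured. The 66 windows also had more G and C than the rest, with a median of 63.5% against 51.7%. TGACNNNGC was in 6 of 21 windows of genes that rose in PVP10, 1 of 13 of genes that fell and 7 of 32 of genes not called. CACGTG was in 3 of 21, 2 of 13 and 4 of 32 in that order, and TGACGTG in 2 of 21, 0 of 13 and 2 of 32. A match is a stretch of letters and not a shown site.

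After PVP10, vesicle trafficking genes moved in both directions against the control. Of the 72 probes, 22 rose and 13 fell, led by Rab10 (2.84-fold higher), Golph3 (2.54-fold) and Cnih1 (2.42-fold) and by Tbc1d2b, which was at 0.467 of its control level. These 35 calls are 48.6% of the trafficking probes, beside 41.5% of all kept probes. Rises made up 30.6% of the trafficking probes (20.1% of all kept) and falls 18.1% (21.4% of all kept). The median log2 fold change was 0.03, beside -0.01 over all kept probes, and the median size of change was 0.24, beside 0.21. PVP10 and control arrays did not overlap for 33 of the 72 probes, beside 34.9% of all kept probes. On chip 2 alone, with 3 PVP10 and 3 control arrays, 31 trafficking probes were called, beside 1050 of the 2774 kept probes. The fit on chip 1, with 2 PVP10 arrays and 1 control, is described at the end.

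**Figure D1:**
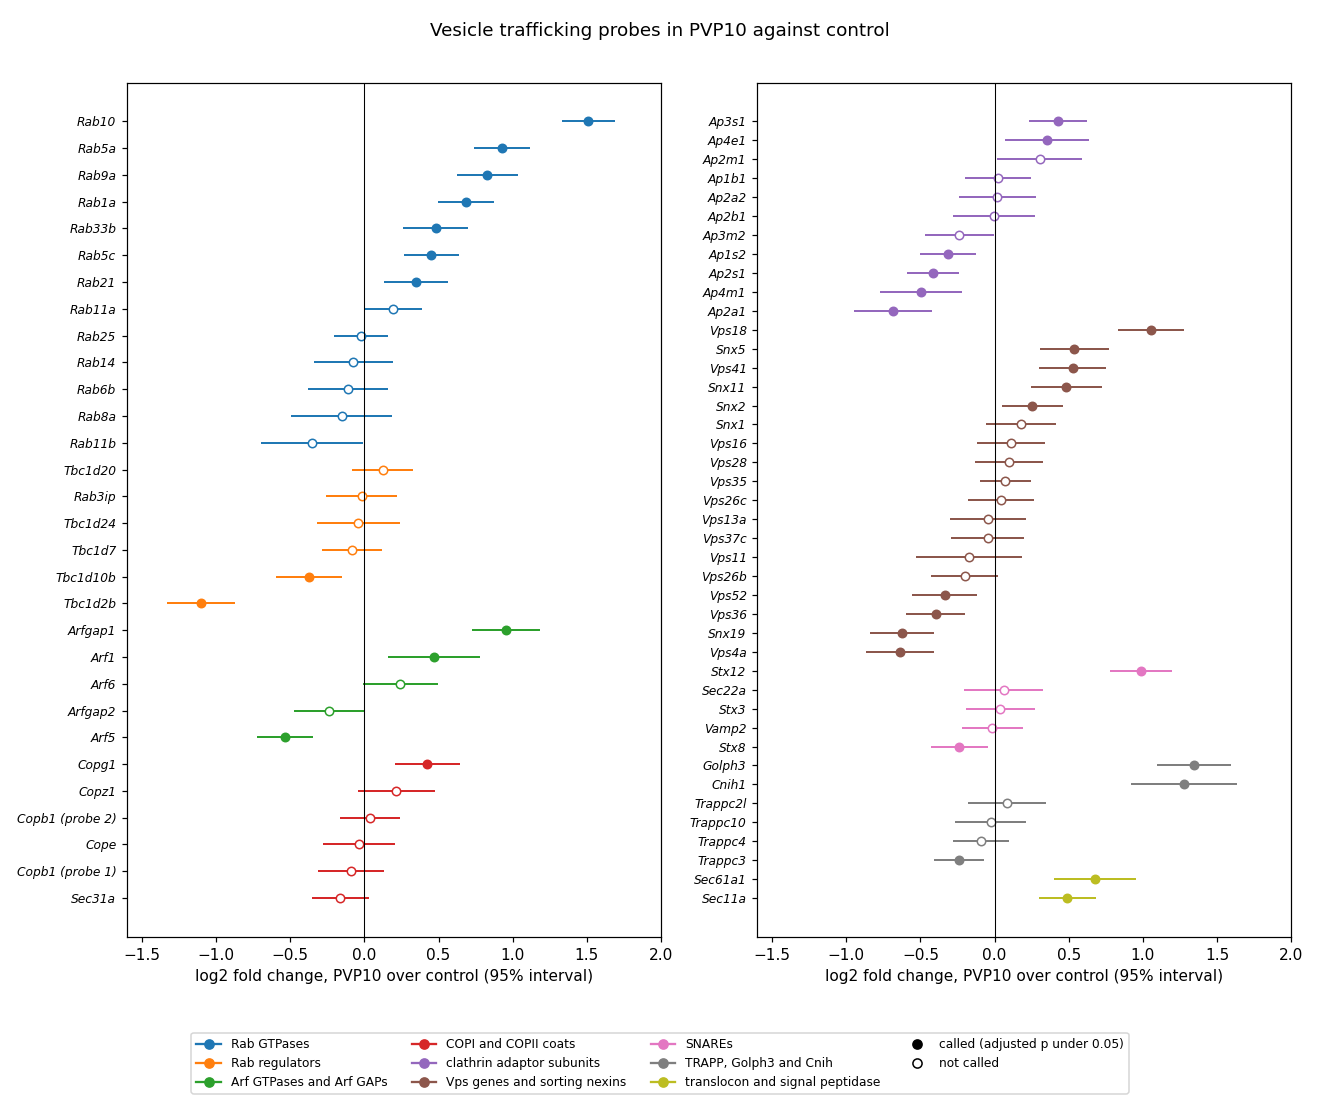
Log2 fold change of each of the 72 tested probes in PVP10 over control (horizontal axis, with 95% intervals), 1 row per probe, grouped and coloured by role. Filled points are called: 22 lie right of 0 and 13 left of it, with 7 of 13 Rab GTPases on the right. Of all kept probes, 20.1% were called higher and 21.4% lower. The values of Snx5, not detected in the control, and Ap4m1, not detected in PVP10, are fitted and have only a bound. The points of Ap1b1, Vamp2, Ap3m2 and the dimmer Copb1 probe are fitted with 1 or both groups below detection.

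Of 13 Rab GTPases tested, 7 rose in PVP10 and 0 fell. Beside this and each role count below stand the shares of all kept probes, 20.1% higher and 21.4% lower. Rab10 carries vesicles to the cell surface. It stood at 9.57, 9.37, 9.66, 9.61 and 9.49 on the PVP10 arrays, at 8.68, 8.88, 8.53, 8.85 and 8.55 on the PVP75 arrays, at 7.95, 8.07, 8.07, 7.99 and 8.16 on the citrate10 arrays, at 7.72, 7.86, 7.84, 7.85 and 7.82 on the citrate75 arrays and at 8.13, 7.98, 7.93 and 8.18 on the control arrays. All 5 PVP10 arrays were above every other array, and all 5 PVP75 arrays were above every citrate and control array. Its log2 fold change in PVP10 was 1.51 (SE 0.0836, adjusted p = 1.9e-14), the smallest p among the trafficking probes. The level averaged 9.54 ± 0.11 in PVP10 (SD, n = 5) and 8.05 ± 0.12 in the control (SD, n = 4).

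Rab5a directs fusion at early endosomes. Its levels were 7.84, 7.55, 7.87, 7.74 and 8.05 in PVP10, 7.02, 7.24, 7.14, 7.06 and 6.91 in PVP75, 6.85, 6.95, 6.83, 6.82 and 6.91 in citrate10, 6.67, 6.57, 6.78, 6.76 and 6.78 in citrate75 and 6.90, 7.03, 6.72 and 6.95 in the control. PVP10 stood clear of all other arrays, whereas PVP75 and the control overlapped. The rise in PVP10 was 0.93 (SE 0.0897, adjusted p = 1.58e-09).

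Rab9a carries receptors from late endosomes back to the Golgi. It measured 7.89, 7.80, 8.09, 8.16 and 7.83 in PVP10, 7.39, 7.28, 7.35, 7.62 and 7.47 in PVP75, 7.03, 6.89, 7.20, 7.18 and 7.01 in citrate10, 6.84, 7.17, 7.18, 7.07 and 7.03 in citrate75 and 7.19, 7.07, 7.12 and 7.13 in the control. The PVP10 arrays lay above those of PVP75, and these lay above all the others. The rise was 0.83 in PVP10 (SE 0.0967, adjusted p = 5.02e-08). In PVP75 it measured 0.30 and missed the threshold (adjusted p = 0.087).

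Rab1a, which acts between the endoplasmic reticulum and the Golgi, gave 11.50, 11.50, 11.53, 11.71 and 11.67 in PVP10 and 11.05, 11.29, 11.06, 11.16 and 11.31 in PVP75. In citrate10 it gave 10.53, 10.78, 10.90, 10.76 and 10.88, in citrate75 10.89, 11.00, 10.80, 10.90 and 10.94, and in the control 10.80, 10.83, 11.00 and 10.91. Again the PVP10 arrays came first and the PVP75 arrays next, without overlap between them. The log2 fold change in PVP10 was 0.69 (SE 0.0885, adjusted p = 2.87e-07).

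Smaller rises in PVP10 came from Rab33b of the Golgi (0.48), the early endosome gene Rab5c (0.45) and Rab21 (0.35), a further GTPase of early endosomes. Rab33b passed the detection p on all 5 PVP10 arrays but only 1 of the 4 controls. PVP10 and control arrays did not overlap for any of the 7, as for 34.9% of all kept probes. The 7 were picked by their call in this same comparison, which favours such separation. The 6 Rab genes that were not called had log2 fold changes between -0.35 and 0.19. They include Rab11a (0.19, adjusted p = 0.0934) and Rab11b (-0.35, adjusted p = 0.0899) of recycling endosomes, whose values lay on opposite sides of 0. Rab14, Rab25, Rab6b and Rab8a were the others.

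Among 6 genes for Rab regulators, 0 rose and 2 fell. Tbc1d2b holds the TBC domain of Rab GAPs. On the PVP10 arrays it stood at 8.37, 8.35, 8.41, 8.32 and 8.39, on the PVP75 arrays at 9.21, 9.24, 9.04, 9.10 and 8.99, on the citrate10 arrays at 9.51, 9.49, 8.86, 9.42 and 9.37, on the citrate75 arrays at 9.58, 9.44, 9.42, 9.56 and 9.54 and on the control arrays at 9.19, 9.54, 9.58 and 9.60. The PVP10 arrays, between 8.32 and 8.41, lay close together and below every other array. Its log2 fold change of -1.10 (SE 0.108, adjusted p = 2.12e-09) was the lowest of the 72 probes. Tbc1d10b, which has the same domain, fell as well (-0.37, adjusted p = 0.0047). Tbc1d20, known in human cells as a GAP for Rab1, Tbc1d7, a subunit of the TSC complex, Tbc1d24 and the Rab8 activator gene Rab3ip lay between -0.08 and 0.12 and were not called.

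The Arf genes split. Arfgap1, which ends the action of Arf1 on the Golgi, stood at 8.14, 8.51, 8.52, 8.19 and 8.19 in PVP10, at 7.20, 7.42, 7.37, 7.63 and 7.45 in PVP75, at 7.47, 7.30, 7.28, 7.34 and 7.44 in citrate10, at 7.63, 7.16, 7.14, 7.26 and 7.19 in citrate75 and at 7.50, 7.32, 7.36 and 7.22 in the control. Here PVP10 alone stood apart, and the other groups, PVP75 included, overlapped. The rise was 0.96 (SE 0.109, adjusted p = 3.34e-08). Arf1, which recruits COPI, rose too (0.47, adjusted p = 0.0118), but was not called without control replicate 3.

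Arf5, a related GTPase of the Golgi, went the other way. Its levels were 10.33, 10.51, 10.53, 10.52 and 10.32 in PVP10, 10.77, 10.88, 10.83, 11.03 and 10.82 in PVP75, 10.90, 11.00, 11.05, 10.85 and 11.07 in citrate10, 11.22, 11.07, 11.00, 10.82 and 10.97 in citrate75 and 10.90, 11.00, 11.00 and 11.01 in the control. Every PVP10 array was below every other array. The log2 fold change was -0.54 (SE 0.0881, adjusted p = 1.2e-05). Arf6 of the cell surface (0.24, adjusted p = 0.114) and Arfgap2 (-0.24, adjusted p = 0.0963) were not called.

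**Figure D2:**
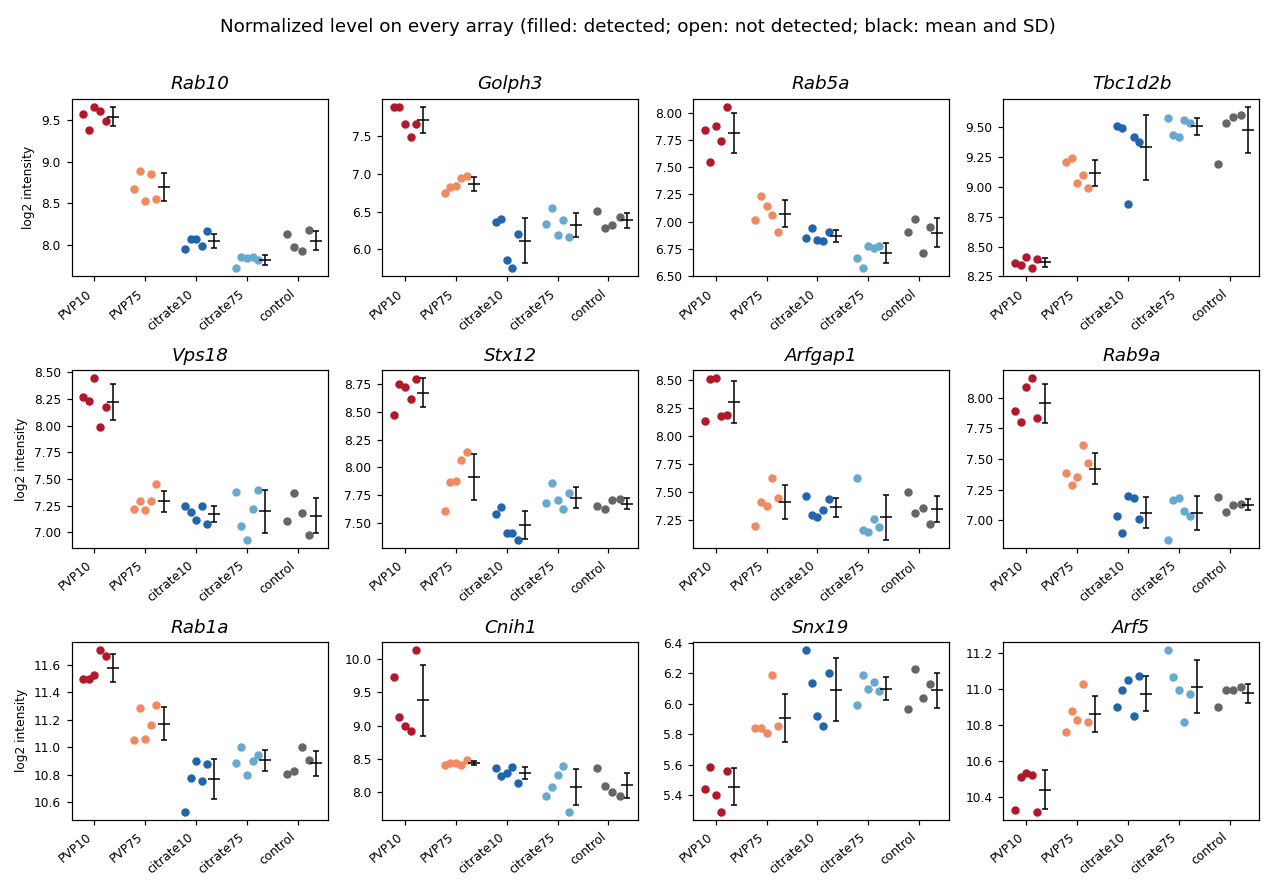
Normalized log2 level on each array (vertical axis, own scale per panel) in PVP10, PVP75, citrate10, citrate75 and control for the 12 trafficking genes with the smallest p in PVP10 against control, with mean and SD in black. PVP10 lies clear of the control in all 12 panels, which the choice by p favours. It lies above the control in 9 and below it in Tbc1d2b, Snx19 and Arf5.

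Few coat genes proper could be tested, and Sec31a was the only one of COPII. The COPII genes Sec13, Sec16b, Sec23a, Sec24a and Sec24b and the COPI genes Copg2 and Copz2 were detected on 0 arrays. Of 6 probes for COPI and COPII subunits only that of Copg1, the gamma subunit of COPI, was called in PVP10 (0.42, adjusted p = 0.0013). The brighter probe of Copb1, those of Cope and Copz1, further COPI subunits, and of the COPII gene Sec31a had log2 fold changes between -0.16 and 0.21.

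Among 11 subunits of the adaptors AP-1 to AP-4, 2 rose and 4 fell in PVP10, and members of one complex parted. In AP-2, which gathers cargo at the cell surface, the large subunit gene Ap2a1 stood at 6.38, 6.02, 6.54, 6.23 and 6.42 in PVP10, against 6.83, 7.17, 7.05 and 7.04 in the control, with no overlap (-0.69, adjusted p = 5.06e-05). In PVP75 Ap2a1 ranged between 6.43 and 6.96 with a median of 6.52.

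The small subunit gene Ap2s1 was at 11.17, 11.29, 11.20, 11.29 and 11.18 in PVP10, at 11.30, 11.45, 11.42, 11.40 and 11.23 in PVP75, at 11.23, 11.53, 11.50, 11.58 and 11.45 in citrate10, at 11.47, 11.74, 11.60, 11.60 and 11.57 in citrate75 and at 11.63, 11.60, 11.67 and 11.65 in the control. Both PVP groups and citrate10 lay wholly below the control, while PVP10 and PVP75 overlapped each other. Citrate10 was not called. The fall in PVP10 was -0.42 (SE 0.0825, adjusted p = 0.000145). The other AP-2 subunits, Ap2a2 (0.02), Ap2b1 (-0.00) and Ap2m1 (0.30, adjusted p = 0.0774), were not called, although the PVP10 arrays of Ap2m1 were all above those of the control.

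In AP-1, the adaptor of the Golgi and endosomes, Ap1s2 fell (-0.31) and Ap1b1, not detected on any PVP10 or control array, has no fold. In AP-3, which sorts towards lysosomes, Ap3s1 rose (0.43, adjusted p = 0.000398). Ap3m2 was not detected on any PVP10 array and not called. In AP-4 the pair measured went apart. Ap4e1, which passed detection on all 5 PVP10 arrays but only 1 of the 4 controls, rose (0.35, adjusted p = 0.0382), a call lost without any one of 7 arrays, among them each control. Ap4m1 was not detected on any PVP10 array and on 3 of 4 control arrays, and was at least 1.21-fold lower in PVP10 (adjusted p = 0.00319).

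The 18 Vps and sorting nexin genes gave 5 rises and 4 falls in PVP10. Vps18 is a core subunit of HOPS and CORVET, the tethers of late and early endosomes. It measured 8.27, 8.23, 8.44, 7.98 and 8.17 in PVP10, 7.22, 7.29, 7.21, 7.29 and 7.46 in PVP75, 7.25, 7.19, 7.11, 7.25 and 7.08 in citrate10, 7.38, 7.06, 6.93, 7.22 and 7.40 in citrate75 and 7.11, 7.37, 7.18 and 6.97 in the control. PVP10 was clear of all other groups, which overlapped one another. The rise was 1.05 (SE 0.104, adjusted p = 2.44e-09). Vps41, which belongs to HOPS and not to CORVET, rose by 0.53 (adjusted p = 0.000209). The core subunits Vps11 (-0.17, adjusted p = 0.481) and Vps16 (0.11, adjusted p = 0.481) were not called, with 95% intervals of -0.52 to 0.18 and -0.11 to 0.33.

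**Figure D3:**
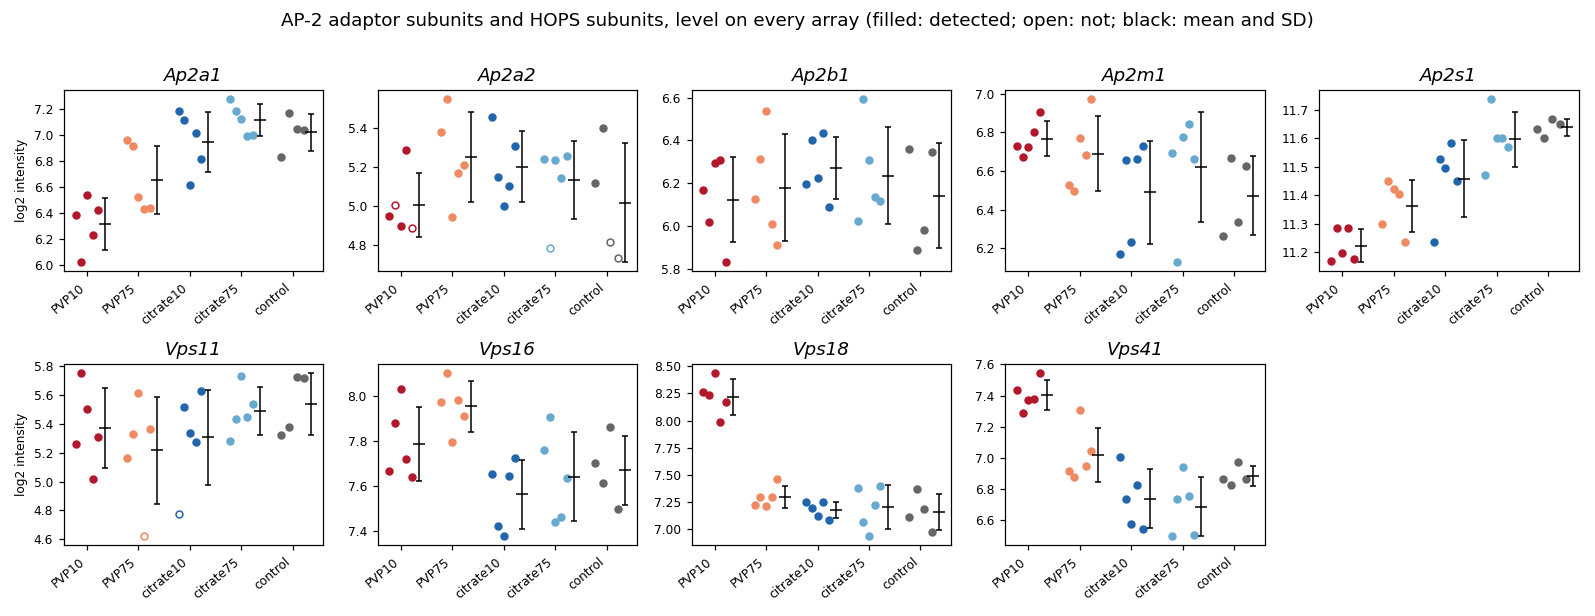
Normalized log2 level on each array (vertical axis, own scale per panel) in PVP10, PVP75, citrate10, citrate75 and control for the 5 AP-2 subunits measured (top) and 4 HOPS subunits (bottom), with mean and SD in black and open circles for arrays without detection. Ap2a1 and Ap2s1 lie below the control in PVP10 and Vps18 and Vps41 above it, while Ap2a2, Ap2b1, Vps11 and Vps16 overlap with the control.

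Of the endosomal return route, the SNX-BAR genes Snx5 and Snx2 rose in PVP10. Snx5 was detected on all 5 PVP10 arrays, 2 PVP75, 0 citrate10, 2 citrate75 and 0 control arrays. In PVP10 it exceeded the control at least 1.16-fold (adjusted p = 0.000245). Snx2 rose by 0.25 (adjusted p = 0.0362), a call lost without any one of 6 arrays. Snx1 (0.18), the retromer genes Vps35 (0.07) and Vps26b (-0.20) and Vps26c of the related retriever complex (0.05) were not called. Snx11, which binds endosomal lipid through a PX domain, rose (0.48, adjusted p = 0.000964).

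Snx19, a further PX-domain gene, stood at 5.44, 5.59, 5.40, 5.29 and 5.56 in PVP10, at 5.84, 5.84, 5.81, 6.19 and 5.86 in PVP75, at 6.35, 6.13, 5.92, 5.85 and 6.20 in citrate10, at 5.99, 6.19, 6.09, 6.14 and 6.08 in citrate75 and at 5.96, 6.23, 6.04 and 6.13 in the control. The PVP10 arrays were the 5 lowest of the 24. Its log2 fold change was -0.63 (SE 0.102, adjusted p = 1.06e-05).

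In the ESCRT route to the lysosome, Vps4a, the ATPase that takes the complexes apart, was at 6.22, 5.91, 6.35, 6.41 and 6.10 in PVP10, against 6.89, 6.78, 6.83 and 6.89 in the control (-0.64, adjusted p = 2.07e-05). Vps36 of ESCRT-II fell as well (-0.40, adjusted p = 0.000993), while Vps28 and Vps37c of ESCRT-I were not called. Vps52 of the GARP tether fell (-0.34, adjusted p = 0.00959) with overlapping arrays, and passed detection on only 1 of the 5 PVP10 arrays, against all 4 controls. Vps13a, a lipid transfer gene, was not called (-0.04).

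Among 5 genes with syntaxin, Vamp or Sec22 names, Stx12 alone rose. Its product, also called syntaxin 13, serves fusion at recycling endosomes. The levels were 8.47, 8.75, 8.73, 8.61 and 8.80 in PVP10, 7.60, 7.87, 7.88, 8.07 and 8.14 in PVP75, 7.58, 7.64, 7.41, 7.41 and 7.35 in citrate10, 7.68, 7.86, 7.71, 7.62 and 7.77 in citrate75 and 7.65, 7.62, 7.71 and 7.72 in the control. All PVP10 arrays were above all others, and PVP75 spanned the control. The rise was 0.99 (SE 0.0982, adjusted p = 2.75e-09). Stx8 of late endosomes fell (-0.24, adjusted p = 0.033), a call lost without any one of 5 arrays. Stx3 (0.04) and Sec22a (0.06) were not called, and Vamp2, not detected on any PVP10 or control array, has no fold.

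Golph3 binds a Golgi lipid and helps hold glycosyltransferases in place. It measured 7.89, 7.88, 7.66, 7.49 and 7.66 in PVP10, 6.75, 6.83, 6.84, 6.94 and 6.97 in PVP75, 6.36, 6.40, 5.85, 5.75 and 6.20 in citrate10, 6.34, 6.55, 6.19, 6.38 and 6.16 in citrate75 and 6.50, 6.29, 6.32 and 6.43 in the control. PVP10 lay above PVP75, and PVP75 above every remaining array. The rise in PVP10 was 1.34 (SE 0.117, adjusted p = 2.84e-10).

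Cnih1, a cornichon that loads cargo into COPII vesicles, gave 9.74, 9.12, 9.0, 8.92 and 10.14 in PVP10, 8.41, 8.43, 8.44, 8.41 and 8.48 in PVP75, 8.36, 8.25, 8.30, 8.38 and 8.15 in citrate10, 7.95, 8.08, 8.25, 8.40 and 7.71 in citrate75 and 8.37, 8.10, 8.01 and 7.95 in the control. Its PVP10 arrays spread over more than a log2 unit, and the lowest of them was still above all other arrays. The rise was 1.28 (SE 0.171, adjusted p = 5.49e-07), with an SD of 0.53 in PVP10 and 0.19 in the control.

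Of the TRAPP tether genes only Trappc3, a core subunit, was called (-0.24, adjusted p = 0.0143). Trappc2l, Trappc4 and Trappc10 lay between -0.09 and 0.09. Both genes of the import step, the translocon gene Sec61a1 (0.68, adjusted p = 0.000126) and the signal peptidase gene Sec11a (0.49, adjusted p = 6.27e-05), rose.

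After PVP75, 3 of the 72 trafficking probes were called against the control (4.17%, beside 5.3% of all kept probes), 2 higher (2.56% of all kept were) and 1 lower (2.74%). Rab10 rose by 0.71 (SE 0.0884, adjusted p = 3.39e-06) and Golph3 by 0.53 (SE 0.124, adjusted p = 0.00967). For each, 5 of 5 PVP75 arrays lay above every control array, in levels not adjusted for the chip. PVP75 and control arrays did not overlap, in either direction, for 13.9% of the trafficking probes and 9.44% of all kept probes. PVP75 had 4 arrays on chip 1 and the control 1, so this comparison partly follows the chip. Over 34 alternative analyses, described at the end, Rab10 measured 0.59 to 0.74 and Golph3 0.30 to 0.58. Golph3 was not called without the detection filter. The fit on chip 1, with 4 PVP75 arrays and 1 control, is given at the end for these calls as well. Ap2s1 fell by 0.29 (SE 0.0873, adjusted p = 0.0496), below every control array, but 19 of the 24 fits that left out 1 array lost that call. Of the members of the PVP10 list, Rab33b (0.34, adjusted p = 0.0691), Vps52 (-0.33, adjusted p = 0.0707), Rab9a (0.30) and Tbc1d2b (-0.32, adjusted p = 0.0954) came nearest to the threshold after these. PVP10 and PVP75 were set against the same 4 control arrays.

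Neither citrate particle gave a call among the trafficking probes in limma's test. In citrate10, 0 of 72 were called (0.036% of all kept probes were) and 4 had an unadjusted p under 0.05, those of Ap2s1 (-0.18), Arf6 (0.29), Golph3 (-0.26) and Stx12 (-0.20), each at an adjusted p of 0.997. In citrate75, 0 of 72 were called, as were 0% of all kept probes, and 8 had an unadjusted p under 0.05. Among these were Rab10 (-0.19) and Tbc1d20 (0.30). Over all kept probes, 4.15% in citrate10 and 8.72% in citrate75 had an unadjusted p under 0.05, beside 5.56% and 11.1% of the trafficking probes. The median 95% interval reached 0.22 log2 units to either side of a value in both comparisons.

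**Figure D4:**
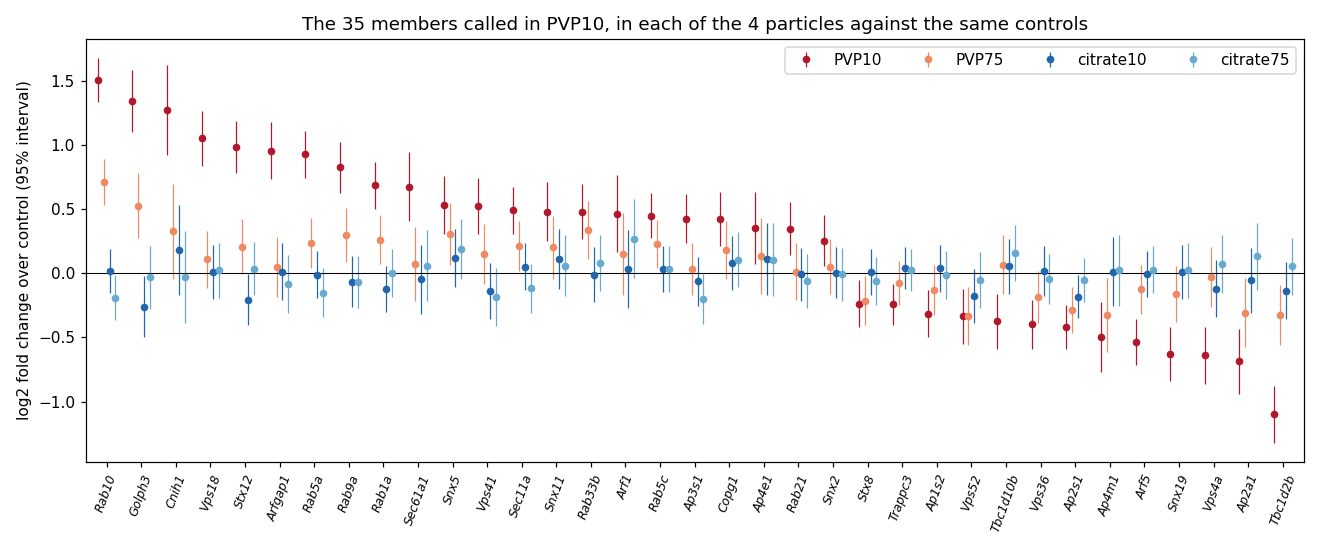
Log2 fold change over control (vertical axis, with 95% intervals) of the 35 trafficking probes called in PVP10, in order of their PVP10 value, for PVP10, PVP75, citrate10 and citrate75 against the same 4 control arrays. The PVP10 points run between 1.51 for Rab10 and -1.10 for Tbc1d2b and chose the order, and the PVP75 points of Rab10 (0.71) and Golph3 (0.53) are the highest of that group.

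The size of the PVP particle was compared directly. All particles were given at 1 ppm. A size difference, here and below, thus cannot be told apart from one in particle number or total surface. Between PVP10 and PVP75, 14 trafficking probes were higher in PVP10 and 8 lower (30.6%, beside 28% of all kept probes, 13% higher and 15% lower). Cnih1 (0.95), Vps18 (0.95), Arfgap1 (0.91), Golph3 (0.81), Rab10 (0.79), Stx12 (0.78), Rab5a (0.69), Sec61a1 (0.61), Rab9a (0.53), Rab1a (0.42), Ap3s1 (0.39), Vps41 (0.38), Rab21 (0.33) and Sec11a (0.28) were higher in PVP10. Tbc1d2b (-0.78), Vps4a (-0.61), Snx19 (-0.47), Tbc1d10b (-0.44), Arf5 (-0.41), Ap2a1 (-0.38), Ap2a2 (-0.33) and Arfgap2 (-0.33) were lower. Of these 22 calls, 17 held whichever 1 array was left out, and those of Ap2a1, Ap2a2, Arfgap2, Rab21 and Sec11a did not. Rab10, Rab5a, Rab9a, Rab1a, Arfgap1, Ap3s1, Vps18, Stx12, Golph3 and Cnih1 had every PVP10 array above every PVP75 array, as 7.68% of all kept probes did. Ap2s1, lower than the control in both, did not pass the test between the sizes.

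Between the citrate sizes 1 trafficking probe was called, that of Tbc1d20 (1.39%, beside 0.144% of all kept probes), and 9 (12.5%, beside 13.7% of all kept probes) had an unadjusted p under 0.05. Tbc1d20 stood at 6.33, 6.26, 6.08, 6.35 and 6.48 in citrate10, against 6.91, 6.73, 6.72, 6.56 and 6.86 in citrate75. The groups did not overlap, as for 2.63% of all kept probes, and the difference was -0.44 (SE 0.0927, adjusted p = 0.0384). The call was lost in 12 of the 24 fits without 1 array and on either chip alone.

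At 10 nm, PVP10 against citrate10 gave 24 higher and 13 lower trafficking probes (51.4%, beside 41.7% of all kept probes, 20.4% higher and 21.4% lower). Golph3 (1.60), Rab10 (1.49), Stx12 (1.19), Cnih1 (1.10) and Vps18 (1.04) were the 5 highest and Tbc1d2b (-0.96), Snx19 (-0.64) and Ap2a1 (-0.63) the 3 lowest. Of the calls, 30 held whichever 1 array was left out, and those of Ap2s1, Rab11a, Snx2, Stx8, Tbc1d20, Trappc4 and Vps35 did not. Snx5, not detected on any citrate10 array, was at least 1.15-fold higher in PVP10, and Ap4m1 at least 1.23-fold lower.

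At 75 nm, PVP75 against citrate75 gave 9 higher and 6 lower trafficking probes (20.8%, beside 14.1% of all kept probes, 6.63% higher and 7.5% lower). Rab10 was 0.90 higher in PVP75 (SE 0.0792, adjusted p = 2.92e-09), Golph3 0.56 (SE 0.111, adjusted p = 0.00109), Rab5a 0.38, Rab9a 0.36, Vps41 0.34, Sec11a 0.33, Vps28 0.32, Vps16 0.30 and Rab1a 0.26. Ap2a1 (-0.44), Rab14 (-0.40), Tbc1d2b (-0.38), Tbc1d20 (-0.34), Vps26c (-0.30) and Ap2s1 (-0.24) were lower in PVP75. Of the 15 calls, 8 held whichever 1 array was left out. Those of Ap2s1, Rab14, Rab1a, Vps16, Vps26c, Vps28 and Vps41 did not, and the count was 8 without citrate75 replicate 5 and 9 without citrate75 replicate 1.

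The coating comparisons at 10 and 75 nm share no array. Golph3, Rab10, Rab1a, Rab5a, Rab9a, Sec11a and Vps41 were higher with PVP than with citrate at both sizes, which is 77.8% of the 9 at 75 nm and 29.2% of the 24 at 10 nm. Ap2a1, Ap2s1 and Tbc1d2b were lower with PVP at both, which is 50% of the 6 at 75 nm and 23.1% of the 13 at 10 nm. Over all kept probes, 149 were higher with PVP at both sizes (81.0% of those at 75 nm and 26.4% of those at 10 nm) and 175 lower (84.1% and 29.5%). Tbc1d20 was called in opposite directions, 0.27 in PVP10 against citrate10 and -0.34 in PVP75 against citrate75. It was called against the control with neither PVP nor citrate particles.

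A test of whether size mattered differently with PVP than with citrate (the PVP10 minus PVP75 difference less the citrate10 minus citrate75 difference) called 14 trafficking probes (19.4%, beside 15.2% of all kept probes). Of these 11 were positive and 3 negative, beside 7.07% and 8.11% of all kept probes. The largest was that of Golph3 (1.04, SE 0.156, adjusted p = 4.91e-05). Stx12 (1.02, adjusted p = 7.84e-06) and Vps18 (0.96, adjusted p = 3.01e-05) followed. For Golph3 the 10 nm particle was 0.81 above the 75 nm particle with PVP and 0.23 below it with citrate, the second of which was not called (-0.23, adjusted p = 0.364). Tbc1d20 (0.60, adjusted p = 0.00183) was the one member whose interaction came with a call between the citrate sizes and none between the PVP sizes.

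**Figure D5:**
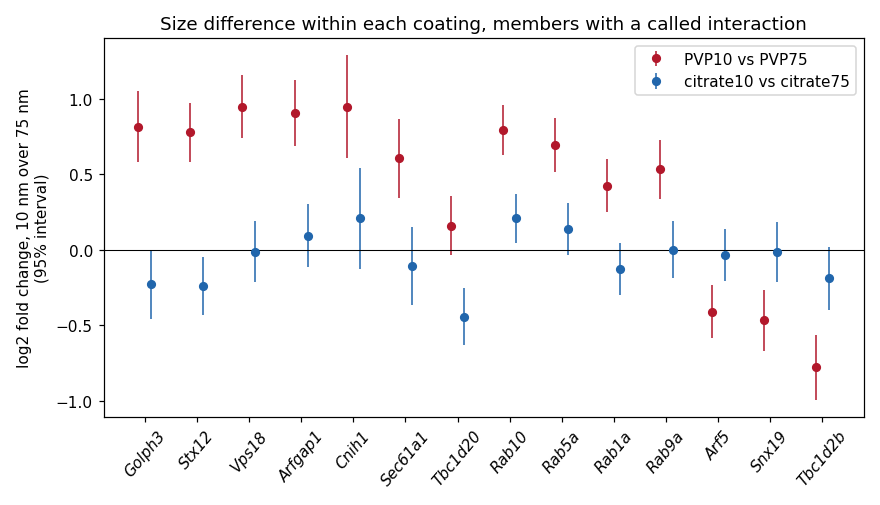
Log2 difference of the 10 nm over the 75 nm particle (vertical axis, with 95% intervals) within PVP and within citrate for the 14 trafficking probes with a called interaction. With PVP, 10 points lie above 0 with their intervals, and 3 (Arf5, Snx19 and Tbc1d2b) below, and with citrate only Tbc1d20 (-0.44) is called.

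Other genes of the same routes lie outside the name pattern. A list of 155 such genes (clathrin chains, GGA adaptors, cargo receptors, further ESCRT, exocyst, COG and tethering genes) had 118 on the array and 26 tested. In PVP10, 6 rose and 5 fell, which is 42.3%, near the 41.5% of all kept probes. The exocyst gene Exoc3 (0.72), the mannose 6-phosphate receptor gene M6pr (0.49), the ESCRT-III gene Chmp1a (0.45), the clathrin heavy and light chain genes Cltc (0.44) and Clta (0.39) and the retrieval receptor gene Kdelr3 (0.31) rose. Gga1 (-1.14) and Gga2 (-0.34), adaptors that sort at the Golgi, Tfg of the COPII exit sites (-0.58) and the ESCRT-III gene Chmp2a (-0.44) fell. Rabggta, a subunit of the enzyme that attaches lipid to Rab proteins, was called lower too (adjusted p = 0.0262) but was detected on 0 PVP10 and 2 control arrays. In PVP75 only Gga1 was called (-0.46, adjusted p = 0.0146), and in limma's test of either citrate particle 0 of the 26 were.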

How the data were processed

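RNA of 24 RBEC4 samples was measured on Illumina rat BeadChips. The deposited signal table holds, per the file headers, a linear bead intensity and a detection p-value for each probe and array. The submitters' processing notes list GenomeStudio 2011.1, with no role given. A genome build is not given in the sources used here. The authors' second deposited table, of linear intensity with nearly equal quantiles on every array (column medians 88.85 to 88.88), was taken as quantile normalized and used as an alternative. All sample columns were matched to a sample by chip and position, and 0 were left unused.

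With limma 3.58.1 in R 4.3.3, neqc corrected the background by normexp (offset 16, negative controls inferred from the detection p-values), quantile normalized the arrays and took log2. The offset draws the log2 fold changes of dim probes towards 0. Probes with a detection p under 0.01 on 4 or more arrays were kept (2774, or 12.3%). A model with group and BeadChip was fitted to all arrays with lmFit and eBayes, after a test on simulated data, and p-values were adjusted over the kept probes in each of 9 comparisons. Group means and SDs are not adjusted for the chip, and fold changes are. Where a group had no array with detection of a probe, the other group's mean was set against a floor, on each array the higher of the probe's own level and that of the dimmest detected probe, and the ratio is written as at least that fold. The number of arrays limits the precision.

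Gene names come from the platform annotation, which can be old. Of the 216 trafficking probes, 215 had their Entrez identifier in the RefSeq table of GRCr8, which changed 0 symbols. Array values are given for the 12 genes with the smallest p in PVP10 against control, provided that all arrays of the brighter group detected them, and for genes called in the other particles, and those of Ap2a1, Vps4a and Tbc1d20 were added after their values were seen. The trafficking genes and lists were chosen with earlier results of these data known. Alternatives changed the background, offset, filter, chip term, replicate block and array weights, and left out chips or arrays.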

Additional observations from a re-analysis of the deposited data

Results flagged for a closer look

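In 6 of the 65 sets of arrays examined (13 genes in 5 groups), 1 array stood far from the rest of its group by Dixon's test, which chance alone does in about 1 set in 20. Rab10 was at 7.72 in citrate75 replicate 1, with the next array at 7.82. Tbc1d2b was at 8.86 in citrate10 replicate 3 (next array 9.37) and at 9.19 in control replicate 1 (next array 9.54). Arfgap1 was at 7.63 in citrate75 replicate 1 (next array 7.26). Snx19 was at 6.19 in PVP75 replicate 4 (next array 5.86), and Arf5 was at 10.9 in control replicate 1 (next array 11.0).

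The effect of particle size differed between the coatings for 14 trafficking probes by limma's interaction test. It was positive for Golph3 (1.04), Stx12 (1.02), Vps18 (0.96), Arfgap1 (0.81), Cnih1 (0.74), Sec61a1 (0.71), Tbc1d20 (0.60), Rab10 (0.59), Rab5a (0.56), Rab1a (0.55) and Rab9a (0.53), with adjusted p between 7.84e-06 and 0.0266. It was negative for Tbc1d2b (-0.59), Snx19 (-0.45) and Arf5 (-0.38), with adjusted p between 0.00551 and 0.0281. Of the 14, 11 held whichever 1 array was left out. Snx19 was lost without citrate10 replicate 1, Cnih1 without any one of 4 arrays and Arf5 without any one of 7.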

How the results depend on the processing

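Over 35 alternatives (34 where PVP75 enters, since chip 2 held 1 PVP75 array and was run only for other comparisons), 0 called trafficking probes changed sign. Of the 35 calls in PVP10 against control, 14 held in every alternative and 16 more in all but chip 1 alone, which held 1 control array, assumed to vary like the other groups. With chip 1 alone the calls were 14 in PVP10 and 0 in PVP75 against control, 14 in PVP10 against PVP75, 0 in citrate10 against citrate75, 17 in PVP10 against citrate10, 3 in PVP75 against citrate75 and 4 in the interaction. With chip 2 alone citrate10 against citrate75 had 0. Without the detection filter there was 1 in PVP75 against control (that of Rab10), 0 between the citrate sizes and 7 in PVP75 against citrate75. PVP75 against control had 5 without the chip term, 5 with the chip as a random block and 6 with array weights, which gave 3 between the citrate sizes. Leaving out 1 array gave 31 to 37 in PVP10 and 2 to 4 in PVP75 against control, 0 to 0 for either citrate particle against control, 19 to 24 between the PVP sizes, 0 to 2 between the citrate sizes, 33 to 37 and 8 to 16 between the coatings at 10 and 75 nm, and 12 to 16 in the interaction. The citrate size count was 0 without any one of 12 arrays and 2 without citrate75 replicate 4. Fewer arrays or more tested probes enter the chip and filter alternatives, and the cause of the other shifts was not tested. With the replicate number as a block the counts were 33, 2, 0 and 0 for PVP10, PVP75, citrate10 and citrate75 against control, 23 and 1 between the sizes, 36 and 14 between the coatings and 15 in the interaction. Same-numbered arrays did not deviate together (median r 0.00255 over 46 pairs, 7 over 0.1, and 7 of 24 arrays nearest to one of their own number), so the numbers are not taken to pair samples. Calls over all kept probes in PVP10 were 367 on chip 1 alone, against 1152.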
